A study of Mus musculus with 4 samples.

Results

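Membrane mucins are glycoproteins with a heavily O-glycosylated extracellular part and a transmembrane anchor, and together they form most of the glycocalyx over the apical face of the intestinal epithelium. Unlike Muc2, the secreted mucin that builds the mucus gel, they stay attached to the cell that made them, and their ectodomains can be shed. Several carry EGF-like domains and a short cytoplasmic tail that binds scaffold proteins or signalling receptors. The membrane mucins described here are the 5 genes Muc1, Muc3, Muc4, Muc13 and Muc20, chosen by symbol from the 28694 genes of the deposited matrices. Muc3 belongs to the brush border of absorptive cells, and Muc13 is the broadly expressed intestinal member with EGF-like domains. Muc1 has a tail that can be phosphorylated and binds beta-catenin, Muc4 is a partner of the receptor ErbB2, and MUC20 has been described in human cells as a partner of the receptor MET.

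Single-cell RNA was read in 4 droplet libraries, 2 of distal colon (DC) and 2 of small intestine, section 8 (Si8), all labelled goblet cells. Every mouse carried the RedMUC298trTg transgene, a red fluorescent (mCherry) reporter used to sort goblet cells, was 6 to 8 weeks old and had no treatment named in the labels, so region is the one labelled difference between DC and Si8. Live epithelial cells were released with EDTA, DTT and collagenase and sorted on mCherry with a C57Bl6 mouse as the negative control. The labels do not state whether mCherry-negative cells were loaded too or how many mice stand behind a library. They also do not state whether the libraries of a region came from separate mice. The p-values therefore rest on the spread between these libraries, which may be technical. In edgeR the spread of a gene was estimated partly from that of other genes.

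The genes lie on 3 chromosomes of the GRCm38 build, in the GENCODE M21 annotation. Muc1 lies at chr3:89229057-89233381 on the plus strand, Muc3 at chr5:137134922-137149322 on the minus strand and Muc13 at chr16:33794037-33819934 on the plus strand. Muc4 (chr16:32735886-32782391, plus) and Muc20 (chr16:32777419-32797435, minus) share 4973 bases on opposite strands, and no label states whether counting used the strand. Muc4 and Muc20 transcripts shared no stretch of 31 bases on the same strand, and 13.5% of the 31-base stretches of Muc20 occurred in Muc4 on the opposite strand. The paralog Muc3a (chr5:137208813-137212389, minus), which is no member of the 5, shared no stretch of 31 bases with Muc3 transcripts.

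The 250 bases upstream of a RefSeq start (GRCm38.p6), for Muc13 the first of its pair of starts, are shown for the 4 members with enough UMIs to be tested, since their levels divided the regions and the cell classes in different ways. Capitals mark matches to 8 short motifs searched on both strands, none of which overlapped another. The windows are chr3:89228806-89229055 (plus) for Muc1, chr5:137166047-137166296 (minus) for Muc3, chr16:32735636-32735885 (plus) for Muc4 and chr16:33793787-33794036 (plus) for Muc13. For Muc3 the RefSeq start lies at the start of the neighbouring GENCODE gene Gm3054 (chr5:137154029-137166070, minus), not at that of GENCODE's Muc3.
Muc1: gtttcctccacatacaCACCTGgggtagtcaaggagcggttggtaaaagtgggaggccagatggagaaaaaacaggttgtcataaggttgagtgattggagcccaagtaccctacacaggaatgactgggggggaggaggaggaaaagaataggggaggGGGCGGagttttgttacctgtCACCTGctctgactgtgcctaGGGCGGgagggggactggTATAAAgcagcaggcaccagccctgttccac
Muc3: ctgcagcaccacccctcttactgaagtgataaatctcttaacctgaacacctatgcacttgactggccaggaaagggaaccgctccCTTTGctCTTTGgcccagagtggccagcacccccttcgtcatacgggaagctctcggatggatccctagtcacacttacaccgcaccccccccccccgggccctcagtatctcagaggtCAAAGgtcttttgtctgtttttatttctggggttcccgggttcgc
Muc4: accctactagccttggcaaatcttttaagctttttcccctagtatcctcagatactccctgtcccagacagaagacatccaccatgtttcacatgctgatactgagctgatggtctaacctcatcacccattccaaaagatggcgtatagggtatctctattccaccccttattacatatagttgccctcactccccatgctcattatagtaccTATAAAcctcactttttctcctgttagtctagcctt
Muc13: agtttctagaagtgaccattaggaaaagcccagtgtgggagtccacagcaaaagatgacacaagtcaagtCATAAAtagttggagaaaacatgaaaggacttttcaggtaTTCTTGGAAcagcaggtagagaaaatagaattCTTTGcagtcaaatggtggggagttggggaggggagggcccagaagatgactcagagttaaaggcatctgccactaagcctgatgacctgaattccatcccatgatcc
The Muc1 window held 1 TATA box (TATAAA), 2 GC boxes (GGGCGG) and 2 E boxes (CACCTG), and the Muc4 window 1 TATA box. The Muc3 window held 3 matches to a core of the Hnf4 site (CAAAG) and the Muc13 window 1 of them, with 1 Cdx core (TTTATG) and 1 Stat motif (TTCNNNGAA). The Hnf1 core GTTAAT and the Gata motif AGATAA had no match in these 4 windows. Muc13 has another RefSeq start, within the GENCODE gene, whose window (chr16:33794239-33794488, not shown) held 3 matches to CAAAG and 1 to GTTAAT. Among all 32851 promoter windows of the same length, TATAAA occurred in 12.4%, GGGCGG in 32.7%, CACCTG in 17.2%, CAAAG in 48.6%, TTTATG in 10.8%, TTCNNNGAA in 7.02%, GTTAAT in 6.43% and AGATAA in 9.99%. These matches describe letters and were not tested for binding.

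The matrices held 10827 barcodes and 26075303 to 66880457 UMIs per library, and 10243 cells were kept, with a median of 12288 to 21037 UMIs. Classes were named from the leading genes of clusters, and cells outside the goblet-like class held Muc2 too. Of the kept cells 5210 were goblet-like, and Muc2 stood at 4234 and 5664 counts per 1000000 UMIs of the same cells (CPM) in DC goblet-like cells and at 10759 and 11048 CPM in Si8 goblet-like cells. The rest were mainly absorptive-like (212 and 959 cells in DC libraries 1 and 2, against 111 and 307 in Si8 libraries 1 and 2) and cycling cells (460 and 1328 in DC, against 209 and 668 in Si8). Absorptive-like cells had Muc2 at 2441 and 2342 CPM in DC and at 6707 and 4448 CPM in Si8. It was found in 94.3% and 98.7% of these cells in DC and in 100% in both Si8 libraries. The name absorptive-like therefore does not mean that goblet genes were absent. The clusters were named over both regions. Named in DC alone, cluster 6 of the cycling cells (550 DC cells, with 2 goblet, 1 stem and 1 cycling marker among its 10 leading genes there) and cluster 7 of the goblet-like cells (430 DC cells) had no name. Levels given for all cycling cells include cluster 6, and the regions are compared there by cluster. Cluster 8, with 120 and 116 cells in DC and 298 and 115 in Si8, had low UMI counts and was left without a class name. Its leading genes included Mxd1, Krt20, Saa1 and Clca1. Between 1 and 16 cell barcodes occurred in each pair of libraries. DC libraries 1 and 2 stood apart for Muc3 in goblet-like cells, as given below, and the plasma cell transcript Igkc was at 451 CPM in goblet-like cells of Si8 library 1 but under 1 CPM in those of the other 3 libraries.

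Over all kept cells, Muc1 and Muc3 were higher in DC, while Muc4 and Muc13 did not pass the test. Muc1 had 283 and 427 UMIs (10.8 and 6.77 CPM) in DC, against 1 and 7 UMIs (0.0392 and 0.134 CPM) in Si8. Muc3 stood at 633 and 1031 CPM in DC, against 138 and 148 CPM in Si8. For both genes each DC library lay above each Si8 library. Summed over a region, Muc1 had 710 UMIs in DC and 8 in Si8, 77.3 times as many after scaling by depth (95% interval from counting error 39.0 to 180). In the edgeR quasi-likelihood test with Benjamini-Hochberg adjustment, Muc1 rose in DC (log2 fold change 6.01 ± 0.50 SE, adjusted p = 0.00110) and so did Muc3 (2.13 ± 0.27, adjusted p = 0.00456). These were 2 of the 4 members tested, in a comparison where 24.9% of 13084 genes were called (12.9% higher and 12% lower). In such sums, more cells of a type and more RNA per cell cannot be told apart.

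Muc4, the ErbB2 partner, stood at 62.7 and 65.3 CPM in DC and at 31.9 and 18.7 CPM in Si8. The regions did not overlap, but the log2 fold change of 0.92 ± 0.29 gave an edgeR adjusted p of 0.0685. It passed with library totals in place of TMM scaling (1.34) with DESeq2 (0.88), without the filter on low counts (0.94) and without Si8 library 1 (1.43) or Si8 library 2 (0.51); a region left with 1 library was assumed to vary like the other. Muc13 stood at 796 and 491 CPM in DC and at 964 and 476 CPM in Si8. In both regions library 1 was higher than library 2, and the regions overlapped (log2 fold change -0.60 ± 0.41, adjusted p = 0.350). Without Si8 library 2 Muc13 was called, at -1.08, and without Si8 library 1 it was 0.09. Muc20 had 14 and 16 UMIs in DC and none in either Si8 library. Against a floor of 3 counts over the Si8 group, Muc20 was at least 8.71-fold higher in DC; it did not pass the filter on low counts and was not tested.

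The paralog Muc3a, also a brush border mucin gene, went the other way from Muc3. It stood at 9.72 and 23.0 CPM in DC and at 116 and 70.3 CPM in Si8 (log2 fold change -2.92 ± 0.49, edgeR adjusted p = 0.0105). In DC Muc3a stood at 23.4 and 32.1 CPM in absorptive-like cells against 1.23 and 9.58 CPM in goblet-like cells. In Si8 it did not follow absorptive-like cells, with 101 and 50.6 CPM there against 123 and 102 CPM in goblet-like cells. Muc3a is given beside Muc3 because the names are easily confused.

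The classes that carried each mucin differed between the members. Muc3 was concentrated in absorptive-like cells, at 2451 and 2552 CPM in DC and at 544 and 482 CPM in Si8. Cycling cells followed with 896 and 1196 CPM in DC against 157 and 147 CPM in Si8. Goblet-like cells had 16.4 and 91.3 CPM in DC against 45.3 and 42.6 CPM in Si8. In DC absorptive-like cells gave 46.7% and 51.2% of all Muc3 UMIs while being 11.6% and 20.3% of the cells, whereas goblet-like cells gave 1.28% and 3.49% while being 56.2% and 48.5% of the cells. In Si8 goblet-like cells gave 19.0% and 11.1% of the Muc3 UMIs and absorptive-like cells 33.4% and 47.6%. By region, the DC order was absorptive-like (2502 ± 71.3 CPM, SD, n = 2), cycling (1046 ± 212), cluster 8 (317 ± 177) and goblet-like cells (53.8 ± 53.0). The Si8 order was absorptive-like (513 ± 43.9), cluster 8 (315 ± 81.3), cycling (152 ± 6.98), goblet-like (44.0 ± 1.93) and Paneth-like cells (11.3 ± 5.47). No neighbours in either order overlapped between libraries. Within absorptive-like cells the DC mean was 4.87-fold that of Si8, and within clusters 5 and 6 of the cycling cells 7.58-fold and 8.60-fold. Cluster 9 of the cycling cells had a mean 7.01-fold that of Si8, but its DC libraries lay far apart (92.1 ± 101 CPM, SD, against 13.1 ± 3.47 in Si8). The regions did not overlap in any of these. An exact two-sided permutation test of 2 against 2 libraries gave p = 0.333 for each, the smallest it allows.

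Muc13 was spread over every class. It stood at 1084 and 687 CPM in DC absorptive-like cells against 974 and 507 CPM in Si8 absorptive-like cells, and in cluster 5 of the cycling cells at 655 and 381 CPM in DC against 643 and 335 CPM in Si8. Cluster 8 had the highest Muc13 levels of the classes in all 4 libraries, 1379 and 808 CPM in DC against 1728 and 1007 CPM in Si8, and the Si8 Paneth-like cells the lowest, 286 and 155 CPM. Library 1 lay above library 2 in each of these classes and in both regions. The DC order was cluster 8 (1093 ± 404 CPM, SD, n = 2), absorptive-like (885 ± 281), goblet-like (650 ± 221) and cycling cells (517 ± 196). The Si8 order was cluster 8 (1367 ± 510), goblet-like (812 ± 273), absorptive-like (740 ± 330), cycling (495 ± 226) and Paneth-like cells (221 ± 92.9). Each library of a region showed its region's order, although all neighbours of DC, and in Si8 the goblet-like, absorptive-like and cycling cells, overlapped between libraries. No label says whether the library numbers mark a shared preparation.

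In DC, Muc4 was lowest in absorptive-like cells, at 29.4 and 23.4 CPM, against 26.9 and 14.4 CPM in Si8. In cluster 5 of the cycling cells it stood at 65.7 and 56.8 CPM in DC against 27.4 and 23.3 CPM in Si8, and in cluster 8 at 123 and 108 CPM in DC against 104 and 53.2 CPM in Si8. Cluster 8 was highest in each region (116 ± 10.4 CPM in DC and 78.8 ± 36.3 in Si8), while goblet-like (73.6 ± 15.3) and cycling cells (68.9 ± 2.53) of DC did not differ beyond their spread, and nor did the cycling (23.5 ± 2.21), goblet-like (21.5 ± 5.88) and absorptive-like cells (20.7 ± 8.83) of Si8. Si8 Paneth-like cells had 4.11 and 3.03 CPM.

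Muc1 in DC was highest in cluster 8, at 119 and 56.7 CPM, where Si8 had 0 and 0.604 CPM. DC goblet-like cells had 10.3 and 9.22 CPM, DC absorptive-like cells 7.58 and 4.06 CPM and DC cycling cells 6.55 and 4.42 CPM. The last 2 of these classes overlapped (5.82 ± 2.49 and 5.49 ± 1.51 CPM), and goblet-like cells (9.74 ± 0.74) lay above both. In Si8 no class held more than 3 Muc1 UMIs in all. The 30 Muc20 UMIs of DC were scattered over goblet-like (9 and 9), cycling (4 and 5) and absorptive-like cells (0 and 2), with 1 more in an unnamed cluster, too few for an order.

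**Figure D1:**
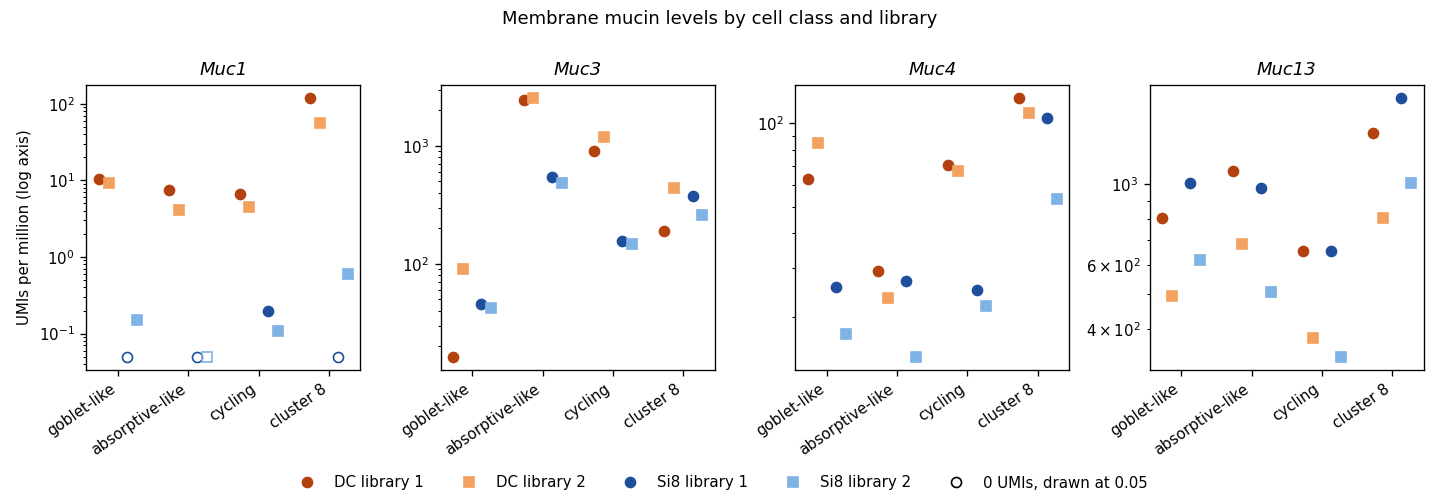
UMIs per 1000000 (log axis) of Muc1, Muc3, Muc4 and Muc13 in 4 groups of cells, each point 1 library, with DC left of Si8 in each group and open points for 0 UMIs. Muc3 reaches 2552 CPM in DC absorptive-like cells and 16.4 CPM in goblet-like cells of DC library 1, while Muc13 stays between 335 and 1728 CPM.

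Within goblet-like cells, Muc1 and Muc4 were higher in DC, Muc13 was lower at the edge of the threshold, and Muc3 had no common direction over libraries. Muc1 had 133 and 229 UMIs in DC, against 0 and 3 in Si8, 111 times as many after scaling by depth (95% interval from counting error 37.7 to 541). Muc4 stood at 62.8 and 84.4 CPM in DC, against 25.7 and 17.4 CPM in Si8. Both DC libraries lay above both Si8 libraries for Muc1 and for Muc4. In the edgeR quasi-likelihood test Muc1 rose by 6.24 ± 0.50 on the log2 scale (adjusted p = 0.000121) and Muc4 by 1.31 ± 0.21 (adjusted p = 0.00260). Muc13 stood at 806 and 493 CPM in DC, against 1005 and 619 CPM in Si8, a log2 fold change of -0.81 ± 0.28 with an adjusted p of 0.049995, just under the threshold of 0.05. The regions overlapped for Muc13, and the call was lost without DC library 2 (-0.51) or Si8 library 1 (-0.45), with library totals (-0.32), with DESeq2 (-0.83), without doublet removal (-0.80) and with cluster 8 counted as goblet-like (-0.92). Of the 4 members tested 3 were called, where 43.9% of 11780 genes were called (21.4% higher and 22.5% lower). Muc20 had 18 UMIs in DC and none in Si8, at least 5.52-fold higher, and was not tested.

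Muc3 in goblet-like cells stood at 16.4 CPM in DC library 1 and 91.3 CPM in DC library 2, against 45.3 and 42.6 CPM in Si8. The DC libraries lay on either side of both Si8 libraries. The log2 fold change was -0.15 ± 0.63 (edgeR adjusted p = 0.864); it was called at 0.58 without DC library 1 and at -1.93 without DC library 2, and was 0.32 with library totals, so the sign depended on the library and the scaling. Muc3 in goblet-like cells was 0.667% and 3.58% of its level in the absorptive-like cells of DC libraries 1 and 2, and 8.32% and 8.83% in Si8. Slc26a3, the chloride-bicarbonate exchanger of colonic absorptive cells, was at 1.04% and 3.56% by the same measure in DC, and Sis, the brush border sucrase-isomaltase, at 1.00% and 1.41% in Si8. The median over 15 colonic absorptive markers was 13.3% and 14.7% in DC, and over 22 small intestinal ones 2.43% and 4.02% in Si8. In DC Muc3 per Slc26a3 was 9.22 and 16.4 in goblet-like cells against 14.4 and 16.3 in absorptive-like cells, and in Si8 Muc3 per Sis was 18.5 and 8.31 in goblet-like cells against 2.24 and 1.33 in absorptive-like cells. Slc26a3 was the lowest of the 15 markers by this measure in DC library 1 and Car1 (3.51%) in DC library 2. The Muc3 level of DC goblet-like cells thus lay near that of the least shared absorptive markers, and how much of it was free RNA was not tested. MHC class II transcript Cd74 also differed between the DC libraries in goblet-like cells, at 1.08 CPM in library 1 and 89.8 CPM in library 2. Cluster 7 is a goblet-like cluster whose leading genes over both regions included Igkc, Cd74 and other immune transcripts. Igkc was at 451 CPM in goblet-like cells of Si8 library 1. It was at 0.0771, 0.362 and 0.0498 CPM in those of DC libraries 1 and 2 and Si8 library 2. These leading genes therefore do not describe cluster 7 in every library. The Muc2 mean of cluster 7 in DC, 1347 CPM, was the lowest of the goblet-like clusters and below that of absorptive-like cells (2391 CPM). Without cluster 7, the log2 fold change of Muc3 was -0.55 and did not pass. Muc1 (7.36), Muc4 (1.11) and Muc13 (-0.92) kept their calls. Leaving cluster 7 out was chosen after seeing the data. Muc3a in goblet-like cells stood at 1.23 and 9.58 CPM in DC against 123 and 102 CPM in Si8 (log2 fold change -4.71 ± 0.62, adjusted p = 0.00105).

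Next, kept cells were ranked within each library by the share of their UMIs that came from Muc2, and the 25% with the highest share (Muc2-rich cells) were set against the 25% with the lowest (Muc2-poor cells). Muc1, Muc4 and Muc13 were higher in Muc2-rich cells, and the Muc3 contrast differed between regions. Muc1 stood at 27.2 and 13.5 CPM in Muc2-rich cells of DC libraries 1 and 2, against 5.09 and 2.93 CPM in Muc2-poor cells, while Si8 held 8 Muc1 UMIs in all. Muc13 stood at 957, 550, 1592 and 767 CPM in Muc2-rich cells of DC libraries 1 and 2 and Si8 libraries 1 and 2, against 675, 449, 637 and 282 CPM in Muc2-poor cells. Muc4 stood at 66.4, 89.3, 75.9 and 24.9 CPM in Muc2-rich cells in the same order of libraries, against 65.0, 49.4, 20.9 and 17.7 CPM in Muc2-poor cells. Muc13 was higher in Muc2-rich cells in 4 of 4 libraries and Muc1 in both DC libraries. Muc4 hardly differed in DC library 1, where the 2 levels came from 283 and 549 UMIs, and was higher in the other libraries. Not thinned, a Muc4 UMI was found in 43.3% of Muc2-rich against 62.4% of Muc2-poor cells of DC library 1. With library as a block in edgeR, the log2 differences were 2.19 ± 0.46 for Muc1 (adjusted p = 0.0138), 1.33 ± 0.33 for Muc13 (adjusted p = 0.0232) and 1.23 ± 0.34 for Muc4 (adjusted p = 0.0325). That made 3 of 4 members, with 31.8% of 11858 genes called (15.1% higher and 16.6% lower). Muc13 and Muc4 were not called without Si8 library 1 (1.08 and 0.80) or without Si8 library 2 (1.09 and 1.28), Muc4 not with library totals (0.80), and Muc1 not without DC library 1 (1.66). All 34 cycling markers tested were lower in Muc2-rich cells and 40 of 56 goblet markers higher. Cluster 8 had more Muc2 than the goblet-like class in each library, at 18150 and 13562 CPM in DC. Muc2-rich and Muc2-poor cells therefore differ in cell class as well as in Muc2. Muc2-rich cells also held fewer UMIs in each library, such as 4262823 against 8443155 in DC library 1. The part of class and depth in the mucin differences was not tested.

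Muc3 stood at 121 and 239 CPM in Muc2-rich cells of DC, against 943 and 1689 CPM in Muc2-poor cells, 0.129 and 0.141 times as much. In Si8 it stood at 283 and 106 CPM in Muc2-rich cells, against 153 and 187 CPM in Muc2-poor cells. Muc3 was lower in Muc2-rich cells of both DC libraries, and the Si8 libraries went in opposite directions. Cluster 8 in Si8 had Muc2 at 23646 and 21195 CPM and Muc3 at 372 and 257 CPM. It held 298 of 1491 kept cells in Si8 library 1 but 115 of 2197 in Si8 library 2. The part of cluster 8 in the Muc3 contrast was not tested. Over both regions the log2 difference was -1.06 ± 0.77 (edgeR adjusted p = 0.314). The DC contrast minus the Si8 contrast was -3.31 ± 0.59 (adjusted p = 0.0391), where 1.95% of genes were called (0.995% higher and 0.953% lower), and among the members this difference was called for Muc3 alone. It was -2.45 with 33.3% of the cells in place of 25%, where the call was lost. For Muc13 the difference of -1.37 ± 0.37 had an adjusted p of 0.0947 and for Muc4 that of -1.10 ± 0.50 one of 0.252. Muc3a had 0.129 and 0.540 times its Muc2-poor level in DC and 3.84 and 4.79 times in Si8 (difference -4.06 ± 0.53, adjusted p = 0.0199).

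**Figure D2:**
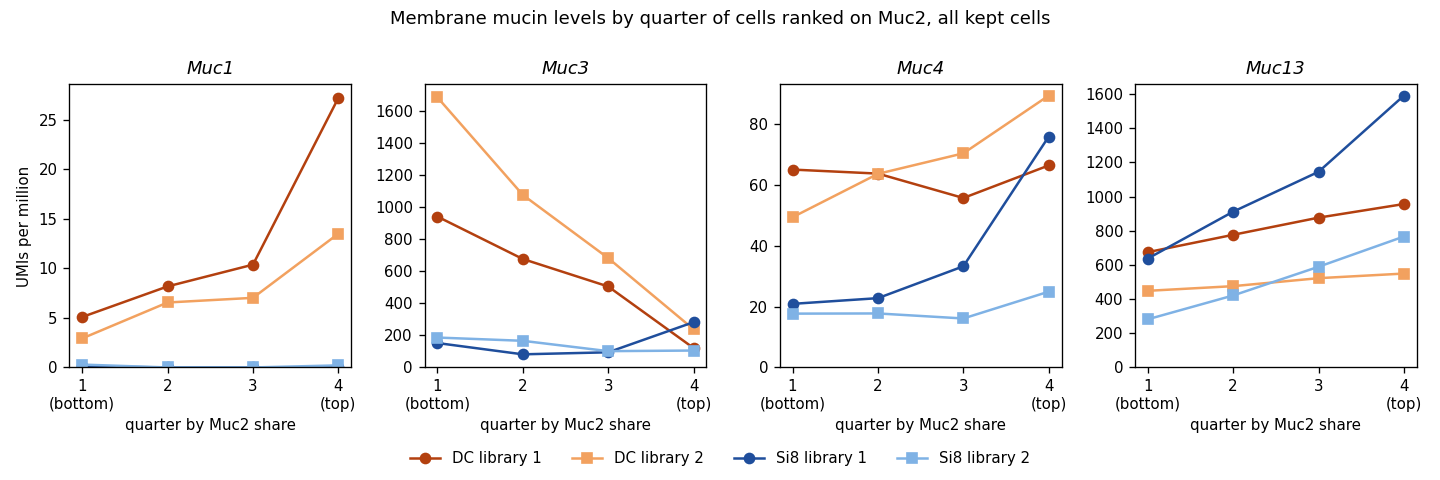
UMIs per 1000000 of Muc1, Muc3, Muc4 and Muc13 in 4 groups, each 25% of the kept cells of each library ranked by their Muc2 share, each line 1 library. Muc3 is at 121 and 239 CPM in Muc2-rich cells of DC against 943 and 1689 CPM in Muc2-poor cells, while Muc13 is higher in Muc2-rich cells of all 4 libraries.

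Cells were ranked in the same way by a list of surface epithelium genes (Krt20 and other genes of cells that have reached the crypt mouth or villus), which held no member. The list also held Slc26a3, Car4, Gsdmc2, Gsdmc4 and Ceacam20, which were among the leading genes of the absorptive-like cluster. Over all kept cells the ranking therefore favours absorptive-like cells by the choice of its genes. The highest and the lowest 25% are called surface-high and surface-low cells. The score was made within each library, from 26 to 30 of the genes over all kept cells and 23 to 26 in goblet-like cells. Some of these genes differed strongly by region, such as Krt20 in goblet-like cells (18.7 CPM in DC against 673 CPM in Si8). The score therefore need not rank the same trait in DC and Si8, and the part of this in regional differences was not tested. Over all kept cells Muc3 and Muc13 were higher in surface-high cells. Muc3 stood at 1572, 2127, 361 and 353 CPM in surface-high cells of DC libraries 1 and 2 and Si8 libraries 1 and 2, against 375, 544, 31.1 and 60.7 CPM in surface-low cells. Muc13 stood at 1023, 679, 1203 and 599 CPM in surface-high cells, against 639, 362, 678 and 298 CPM in surface-low cells. Both were higher in surface-high cells in 4 of 4 libraries. The edgeR log2 differences were 2.53 ± 0.26 for Muc3 (adjusted p = 0.000325) and 0.89 ± 0.08 for Muc13 (adjusted p = 0.000207), 2 of 4 members where 47% of 11979 genes were called (25.2% higher and 21.9% lower). Muc4 stood at 41.5 and 33.7 CPM in surface-high cells of DC, against 80.9 and 96.8 CPM in surface-low cells, and at 51.0 and 20.04 CPM in surface-high cells of Si8, against 18.5 and 17.4 CPM in surface-low cells. It was lower in surface-high cells of both DC libraries and higher in those of both Si8 libraries, by little in Si8 library 2 (251 and 267 UMIs). The DC minus Si8 difference of the contrast was -1.97 ± 0.35 for Muc4 (edgeR adjusted p = 0.00535), where 6.63% of genes were called (3.47% higher and 3.16% lower). Muc1 (0.84 ± 0.39 over both regions, adjusted p = 0.115) did not pass, and Muc3's difference between regions was -0.87 ± 0.28 (adjusted p = 0.0855). It was called without DC library 1 (-0.95), Si8 library 1 (-0.38) or Si8 library 2 (-1.56). In surface-high cells 26 of 29 colonic and 25 of 32 small intestinal absorptive markers were higher and 33 of 34 cycling markers lower. Slc26a3 is both a colonic absorptive marker and on the surface list, so the colonic count partly follows from the ranking. The part of these classes in the mucin differences was not tested.

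Within goblet-like cells alone, the surface contrast differed between the regions for 3 members, 1 of them Muc3. As a percent of the absorptive-like level, Muc3 in DC goblet-like cells lay near the least shared absorptive markers and below the median marker. Muc3 stood at 20.9 and 123 CPM in surface-high cells of DC, against 14.5 and 80.2 CPM in surface-low cells, and at 109 and 76.1 CPM in surface-high cells of Si8, against 10.6 and 12.996 CPM in surface-low cells. Surface-high cells had 1.44 and 1.53 times the level of surface-low cells in DC and 10.3 and 5.85 times in Si8. How much of the Muc3 in these DC cells was free RNA was not tested, and nor was whether its contrast there is one of goblet expression. Muc4 stood at 46.1 and 69.1 CPM in surface-high cells of DC, against 84.4 and 119 CPM in surface-low cells, and at 33.8 and 20.1 CPM in surface-high cells of Si8, against 22.8 and 17.7 CPM in surface-low cells. Muc4 was therefore lower in surface-high goblet-like cells of both DC libraries and higher in those of both Si8 libraries, as over all cells. The difference in Si8 library 2 was small (20.1 against 17.7 CPM). Cluster 8, which is not among these cells, had more of the surface gene Krt20 in DC (678 and 594 CPM) than goblet-like cells (17.6 and 19.8 CPM). Its Muc4 level in DC was high, at 116 ± 10.4 CPM (SD, n = 2), so the contrast does not hold for every surface-type cell. Muc13 was 1.24 and 1.35 times as high in surface-high as in surface-low cells in DC and 1.497 and 1.42 times in Si8.

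Over both regions, edgeR called Muc3 (1.89 ± 0.44 on the log2 scale, adjusted p = 0.0133) and Muc13 (0.68 ± 0.10, adjusted p = 0.00168) higher in surface-high goblet-like cells, in 4 of 4 libraries each, where 25% of 10543 genes were called (14.3% higher and 10.8% lower). Muc1 was also called (0.98 ± 0.26, adjusted p = 0.0258), at 16.8 and 13.4 CPM in surface-high cells of DC against 9.85 and 6.23 CPM in surface-low cells. That call rests on DC, since Si8 goblet-like cells held 3 Muc1 UMIs, and it was lost without DC library 1 (1.05) and without DC library 2 (0.74). Muc4 did not pass (-0.14 ± 0.25, adjusted p = 0.720). The edgeR DC minus Si8 difference was -2.58 ± 0.19 for Muc3 (adjusted p = 1.17e-09), -1.46 ± 0.17 for Muc4 (adjusted p = 2.84e-06) and -0.43 ± 0.10 for Muc13 (adjusted p = 0.00494). These were 3 of 4 members where 10.8% of genes were called (5.26% higher and 5.52% lower). The fit had 2 residual degrees of freedom, and its estimate of spread was shared over genes. P-values this small therefore do not measure the spread between the libraries of a gene alone. The differences for Muc3 and Muc4 kept their call with each library left out in turn, and with cluster 7, which held immune transcripts, left out they were -1.70 and -1.23 and still called. That for Muc4 was lost when cells were thinned to 5000 UMIs (-0.93), and that for Muc13 without DC library 1 (-0.37), without Si8 library 1 (-0.47), without cluster 7 (-0.22), with library totals (-0.17) and without the filter on low counts (-0.40). Among the same cells 20 of 24 colonic and 14 of 23 small intestinal absorptive markers were higher, and their part was not tested. The colonic count again partly follows from the ranking, since Slc26a3 is on the surface list.

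**Figure D3:**
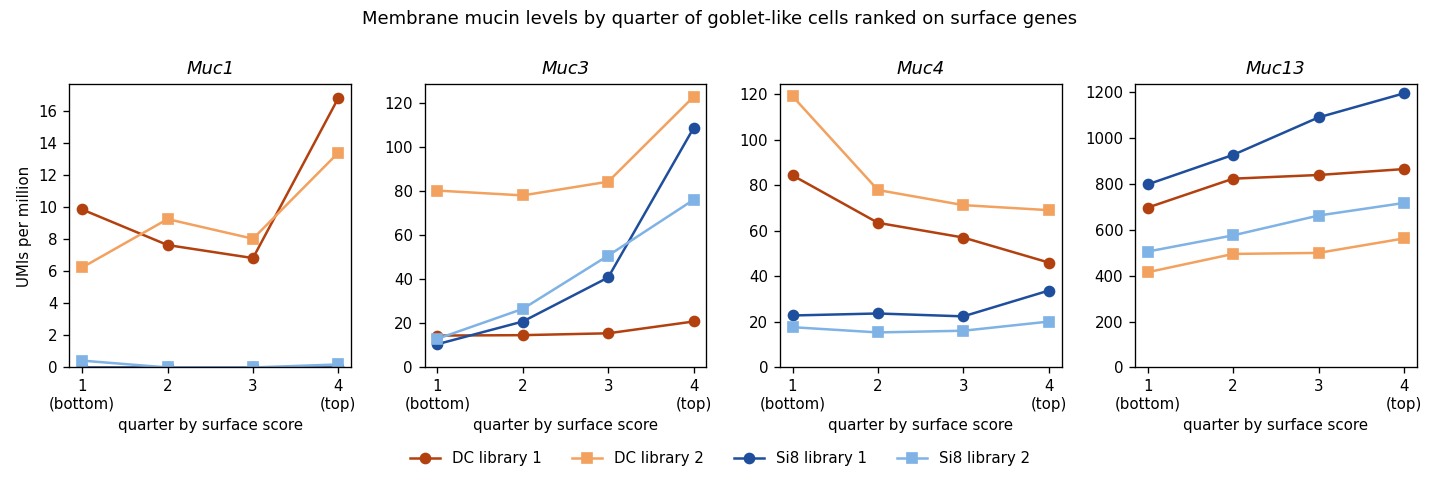
UMIs per 1000000 of Muc1, Muc3, Muc4 and Muc13 in 4 groups, each 25% of the goblet-like cells of a library ranked by surface genes, each line 1 library. Muc3 is 10.3 and 5.85 times as high in surface-high as in surface-low cells of Si8 but 1.44 and 1.53 times in DC, and Muc4 is lower in surface-high than in surface-low cells of both DC libraries.

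Shares of cells with at least 1 UMI were compared after each cell was thinned to 5000 UMIs, which left out 491 shallower cells (132 and 183 in DC, 176 and 0 in Si8). Muc13 was found in 96.7% and 89.3% of DC cells and in 97.9% and 88.1% of Si8 cells. Muc3 was found in 34.8% (exact Clopper-Pearson 95% interval 32.6 to 37.2) and 61.4% (59.9 to 62.8) of DC cells and in 36.3% (33.7 to 39.0) and 37.8% (35.8 to 39.9) of Si8 cells. The Muc3 shares of DC library 1 and the Si8 libraries differed by less than their intervals, and DC library 2 stood above. Muc4 was found in 24.8% and 26.0% of DC cells, against 15.8% and 8.47% of Si8 cells, and Muc1 in 4.94% and 3.33% of DC cells, against 0.0760% (1 of 1315 cells) and 0% (0 of 2197 cells, which allows a share of up to 0.137% with a UMI at this depth) of Si8 cells. Muc20 was found in 0.235% and 0.176% of DC cells and in none of 1315 and 2197 Si8 cells, which allows up to 0.228% and 0.137%. For Muc1, Muc4 and Muc20 the regions did not overlap, with p = 0.333 in the exact two-sided permutation test, the smallest it allows, and for Muc3 and Muc13 they overlapped. Intervals and limits cover counting error only.

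Not thinned, Muc13 was found in 99.8% and 98.7% of DC cells and 99.7% and 99.6% of Si8 cells, Muc4 in 51.8% and 48.5% of DC and 35.1% and 32.4% of Si8 cells, and Muc1 in 12.8% and 7.96% of DC and 0.0671% and 0.228% of Si8 cells. For Muc3 DC had unthinned shares of 43.1% and 72.0%, against 55.1% and 65.3% in Si8. Its mean difference between the regions therefore changed sign. By class, thinned, Muc3 was found in 8.28% and 30.3% of goblet-like cells of DC, against 99.5% and 100% of absorptive-like cells of DC. In Si8 these shares were 19.4% and 16.9% of goblet-like cells and 84.4% and 82.7% of absorptive-like cells. The median depths of these classes before thinning were 12630 and 10718 UMIs (DC) and 19028 and 19203 UMIs (Si8) in goblet-like cells, and 15315 and 13608 (DC) and 19618 and 24567 (Si8) in absorptive-like cells. For Muc4 the class order was the reverse in DC, with 25.9% and 31.6% of goblet-like cells and 10.1% and 11.1% of absorptive-like cells. In Si8 Muc4 was found in 12.2% and 8.21% of goblet-like cells and 12.5% and 7.17% of absorptive-like cells. Muc1 was found in 4.73% and 4.44% of DC goblet-like cells, against 3.02% and 1.72% of DC absorptive-like cells; the goblet-like share lay within the counting interval of the absorptive-like one in library 1 (1.11 to 6.45) and above it in library 2 (0.989 to 2.78). In cluster 8 of DC, Muc1 was found in 12 of 24 and 8 of 36 cells deep enough to thin.

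**Figure D4:**
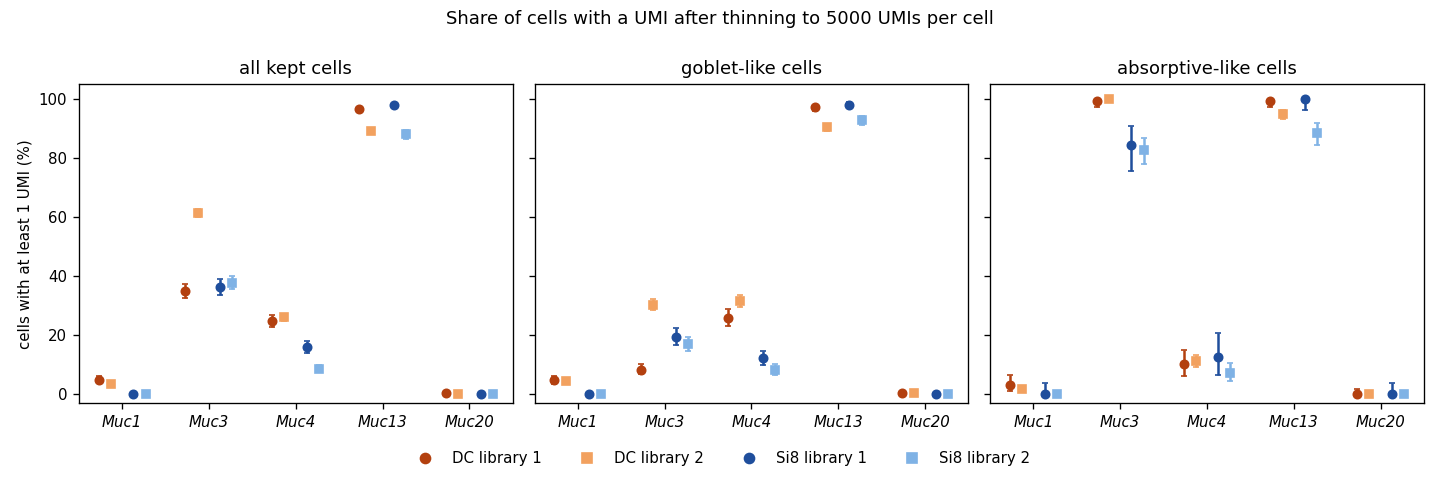
Share of cells with at least 1 UMI (percent) for the 5 membrane mucins after thinning to 5000 UMIs per cell, in all kept, goblet-like and absorptive-like cells, each point 1 library with its exact 95% counting interval and DC left of Si8. Muc3 is in 8.28% and 30.3% of DC goblet-like cells but 99.5% and 100% of DC absorptive-like cells, and Muc4 is higher in goblet-like cells of DC than of Si8.

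Pairs of members were counted in the same thinned cells. Over all thinned cells Muc3 and Muc4 occurred together in 7.30% and 13.4% of DC cells, 0.845 and 0.842 times the share expected from the single shares of the same library. In Si8 they occurred together in 7.98% and 3.69% of cells, 1.39 and 1.15 times the expected share. Joint detection was thus below that expected in both DC libraries and above it in both Si8 libraries. Within goblet-like cells the ratio was 1.01 and 1.02 in DC and 1.24 and 0.963 in Si8, and within absorptive-like cells 0.955 and 1.00 in DC and 1.19 and 0.934 in Si8. Without thinning the DC ratios over all cells were 1.01 and 0.978. Muc1 and Muc4 occurred together at 1.25 and 0.993 times the expected share in DC. A cell with 4 members was found 7 and 20 times in DC and not in Si8 (0 of 1315 and 0 of 2197 cells, which allows up to 0.228% and 0.137%), and no cell held all 5.

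Genes whose levels most resembled each member were sought among 6976 genes over sums per cluster and library (28 in DC, 26 in Si8; sums of 1 library share its preparation and depth). For Muc3 these were Gpd2, mitochondrial glycerol-3-phosphate dehydrogenase (Pearson r of 0.87 in DC and 0.88 in Si8), Gsta1, a glutathione transferase (0.92 and 0.85), and Adck5 (0.83 and 0.83). For Muc13 they were Shroom3, an actin-binding protein of apical constriction (0.87 and 0.91), Hk2, hexokinase 2 (0.89 and 0.84), and the transcription factor gene Klf3 (0.80 and 0.87). Muc4 had weaker partners, with Prom1, a protein of membrane protrusions, at 0.53 and 0.61, Arf5 at 0.61 and 0.52 and Wars at 0.61 and 0.52. For Muc1, which Si8 cells hardly showed, the DC values were 0.94 for Neat1, a nuclear long noncoding RNA, 0.93 for Ahnak2 and 0.92 for Cyp2d12. Muc1 in DC averaged 88.0 CPM in cluster 8 and 16.2 CPM or less in every other cluster summed. How far these Muc1 values rest on cluster 8 alone was not tested.

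Genes that act with membrane mucins were followed in the same goblet-like comparison of DC with Si8, in which 21.4% of genes were called higher and 22.5% lower and the median log2 fold change was 0.044. Scaling by library totals moved that median to 0.53 and the higher share of the calls to 83.3%, against 48.8% with TMM. Other membrane mucins and mucin-like cadherins were lower for 5 and higher for 1 of 6 tested with both scalings (median -2.10 with TMM). Cdhr5, a mucin-like protocadherin of the microvillus tip, averaged 93.6 ± 10.1 CPM in DC and 326 ± 18.4 in Si8 (log2 fold change -2.28, edgeR adjusted p = 3.32e-05). Its partner Cdhr2 fell by 1.92 on the log2 scale (adjusted p = 4.46e-05), and the sialomucin Cd164 by 0.88 (adjusted p = 0.000767). Of 14 apical anchors, which tie membrane proteins to actin, 7 were lower and 2 higher (median -0.43). Slc9a3r1, the scaffold NHERF1, averaged 32.3 ± 0.56 CPM in DC and 97.1 ± 6.97 in Si8 (-2.07, adjusted p = 2.99e-05), Eps8 fell by 1.67, and the ezrin relative Rdx had 627 UMIs in DC and only 2 in Si8, 289 times as many after scaling (95% interval from counting error 79.6 to 2389). With library totals the anchors were 5 higher and 6 lower.

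Galectins, lectins that bind mucin glycans, were lower for 4 and higher for 1 of 6 (median -1.20; 3 and 1 with library totals). In DC Lgals2 averaged 13.01 ± 3.09 CPM, against 11016 ± 216 CPM in Si8 (log2 fold change -10.23, edgeR adjusted p = 2.27e-06). Lgals9 fell by 3.95 and Lgals4 by 1.56. Of 16 proteases that can shed ectodomains, 5 were lower and 2 higher (median -0.13), but 3 lower and 8 higher with library totals. Mmp7, the matrilysin of Paneth cells, had 3 UMIs in DC and 22784 in Si8, 8248-fold lower in DC (95% interval from counting error 2822 to 39997). Hpn, the transmembrane serine protease hepsin, averaged 32.9 ± 0.87 CPM in DC and 1.01 ± 0.02 in Si8 (4.54, adjusted p = 5.38e-06), and Mep1b, a meprin subunit, fell by 3.94. Paneth markers were lower in DC goblet-like cells for 20 of 22 tested and small intestinal absorptive markers for 22 of 28; their part in the lower levels in DC was not tested.

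Signalling partners were higher for 3 and lower for 3 of 19 (median -0.02), and 12 higher and 0 lower with library totals. Hif1a averaged 49.7 ± 3.22 CPM in DC and 7.90 ± 1.60 in Si8 (log2 fold change 2.18, edgeR adjusted p = 7.26e-05), Fgfr3 rose by 1.20 and the NF-kappaB subunit gene Rela by 0.73. Of 5 EGF family ligands tested, Egf rose by 2.07 (adjusted p = 0.000642), Areg by 1.01 (adjusted p = 0.0314) and Btc fell by 1.10 (adjusted p = 0.000735); the call for Areg was lost without DC library 1 (0.66) or Si8 library 2 (0.64). O-glycan enzymes split, with 11 higher and 15 lower of 30 (13 and 13 with library totals). Gcnt1, the core 2 branching enzyme, averaged 63.6 ± 6.92 CPM in DC and 0.991 ± 0.14 in Si8 (5.52, adjusted p = 3.47e-06), the sialyltransferase gene St6gal1 rose by 4.08, and B4galnt2, which makes the Sda antigen, fell by 3.72. Of 9 secreted mucus genes 7 were lower and 1 higher, led by Fcgbp, Tff3 and Zg16 (-2.46, -2.99 and -2.85). Of 27 surface genes 15 were lower and 6 higher (12 and 11 with library totals), led by Krt20 at 18.7 ± 1.59 CPM in DC and 673 ± 63.9 in Si8 (-5.65, adjusted p = 3.43e-06), Tgm2 (-5.98) and Guca2a (-3.21).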

How the data were processed

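UMI counts per gene and cell barcode were deposited as raw counts for 4 10x Genomics 3' v2 libraries; the authors made them with Cell Ranger 2.1.1 on mm10, per the submitters' processing notes. No source used here gives the annotation version. Library totals ranged from 26075303 to 66880457 UMIs.

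Cells needed 500 genes or more and no more than 20% of UMIs from mitochondrial genes. Scrublet in scanpy 1.11.5 marked 0.190% of barcodes by its own threshold, so the highest scores were removed instead, 0.8% per 1000 cells (279 cells). Cells were clustered (leidenalg 0.10.2, resolution 1.0, 2000 variable genes, 30 components, 5 neighbours per library) without the members or list genes, and 1 mixed cluster was clustered again, a step added after seeing the data. A cluster was named where at least 3 markers of a class lay among its 50 top genes; "-like" means named from RNA alone.

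UMIs were summed per library and tested by quasi-likelihood in edgeR 4.0.16 (TMM scaling; filterByExpr, minimum count 10; Benjamini-Hochberg adjusted p under 0.05, over all tested genes), after a check on simulated data. CPM are UMIs per 1000000 of the same cells; fold changes also carry TMM factors (1.20 and 1.17 in DC, 0.856 and 0.834 in Si8 for goblet-like cells). Contrasts between groups of 25% of the cells had library as a block. Detection used exact Clopper-Pearson intervals and a floor of 3 counts; motifs were searched in RefSeq promoter windows. Named genes were all members, the 3 genes of each function list with the smallest adjusted p in goblet-like cells, and the 3 most alike genes per member (Pearson r of log2(CPM + 10), mean of at least 10 CPM). Members and lists were chosen with earlier results of these data known. Alternatives were other scalings, DESeq2 1.42.0, no count filter, thinning, no doublet removal, resolution 0.5, groups of 33.3% of the cells, another surface score, blocks and each library left out; counting cluster 8 as goblet-like and leaving out cluster 7 (immune transcripts) were chosen after seeing the data.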

Additional observations from a re-analysis of the deposited data

Results flagged for a closer look

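A test of the difference itself found contrasts that differed between the regions; each value is the DC contrast minus the Si8 contrast on the log2 scale, by the edgeR quasi-likelihood test. Between Muc2-rich and Muc2-poor cells the difference was -3.31 for Muc3 and -4.06 for Muc3a. Between surface-high and surface-low cells, over all kept cells, it was -1.97 for Muc4. Between surface-high and surface-low goblet-like cells it was -2.58 for Muc3, -1.46 for Muc4, -0.43 for Muc13 and -2.23 for Muc3a (adjusted p = 1.64e-06). Leaving out DC library 2 ended the call for Muc3a (-3.48). In DC goblet-like cells Muc3 lay near the least shared absorptive markers, and how much of it was free RNA was not tested. The surface score need not rank the same trait in both regions, and no cause of these differences was tested.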

How the results depend on the processing

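Member values were recomputed 128 times with a library left out, of which 100 kept direction and side of the threshold, 11 lost a call, 11 gained one, 5 moved without a call and 1 reversed (Muc3 in goblet-like cells without DC library 1, 0.58, against -1.93 without DC library 2). Of 287 recomputations under other settings, 254 kept both, 19 lost a call, 10 gained one and 4 moved. The cause was not tested for any of them unless the setting itself removed cells, genes or a library.

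Over all kept cells 3253 genes were called; library totals gave 5171, and leaving out a library 1411 to 4060 with 2 to 4 members called; without the count filter 4 members were called. In goblet-like cells leaving out a library gave log2 fold changes of 5.46 to 10.3 for Muc1 and 1.05 to 1.57 for Muc4. Those of Muc13 ran from -1.19 to -0.45 and those of Muc3 from -1.93 to 0.58. For the Muc2 contrast, thinning gave 2345 genes in place of 3766, and leaving out a library 1117 to 3700 genes and 1 to 3 members. For the surface contrast of goblet-like cells, 2639 genes became 1643 with DESeq2 and 1366 with thinning, and 1696 to 2401 with a library left out; 1 member was called without the library block there and 1 over all kept cells.

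For the regional difference of the Muc2 contrast, 231 genes became 567 with library totals, 454 with DESeq2, 965 without the filter and 189 to 865 with a library left out; the 1 member called became 2 with DESeq2 and with thinning, 0 with groups of 33.3% of the cells and 1 to 3 with a library left out. For that of the surface contrast over all kept cells, 794 genes became 360 with DESeq2, 1320 without the filter, 522 with thinning, 2382 with the summed surface share and 339 to 1648 with a library left out; 2 members were called with library totals, without the filter, with thinning and with the summed share, and 1 to 2 with a library left out. For that in goblet-like cells, 1137 genes became 2002 with library totals, 250 with DESeq2, 423 without the filter, 375 with thinning, 371 with cluster 7 left out and 132 to 934 with a library left out.

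Library totals in place of TMM moved the median log2 change of all genes to 0.45, against 0.037 with TMM, over all kept cells, to -0.45 against -0.022 in the Muc2 contrast and to -0.20 against 0.012 in the goblet-like surface contrast, and the higher share of calls from 51.9% to 80.6%, from 47.7% to 17.6% and from 57.0% to 26.95%. The detection difference of Muc3 reversed from 11.0 percentage points to -2.68 without thinning and -1.99 over all barcodes, and that of Muc13 from 0.0501 to -0.41, -2.92 (2000 UMIs) and -0.50. The mean DC co-detection ratio moved from 0.843 to 0.991 for Muc3 with Muc4 and from 0.870 to 0.932 for Muc1 with Muc3 without thinning.

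No label says whether the replicate numbers pair samples of DC and Si8, and the main tests of region had no replicate block. In goblet-like cells, deviations of library 1 from its region's mean correlated at 0.102 between DC and Si8 over 11780 genes. A replicate block gave 3923 genes over all kept cells and 5977 in goblet-like cells. It called Muc4 over all kept cells (0.98) and changed no other member's call. For Muc13 in goblet-like cells the block narrowed the error, to -0.81 ± 0.09 (edgeR adjusted p = 8.40e-05). Without the block that value was -0.81 ± 0.28 (edgeR adjusted p = 0.049995), so its place at the threshold depended on this setting. Depth limits Muc20 and Si8 Muc1.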

Other observations

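The clusters called cycling held distinct Muc3 levels. Cluster 5 (led by Top2a and other mitotic genes) and cluster 6 (led by Clca3b and replication genes such as Mcm6 over both regions, but without a name in DC alone) had 1287 and 1419 CPM and 1350 and 1390 CPM in DC, against 191 and 166 CPM and 165 and 154 CPM in Si8. Cluster 9, also cycling, had 20.7 and 163 CPM in DC, against 10.7 and 15.6 CPM in Si8. Muc4 in cluster 9 stood at 76.5 and 114 CPM in DC, against 12.02 and 12.4 CPM in Si8. The transcript Gm3054, at whose start RefSeq places the Muc3 promoter, stood at 1.22 and 1.28 CPM in DC, against 0.196 and 0.153 CPM in Si8, over all kept cells, 7.17-fold higher in DC on average, with no overlap between the regions (exact permutation p = 0.333, the smallest 2 against 2 libraries allow).

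Among the goblet-like clusters with enough cells in a library (9 and 9 in DC, 8 and 6 in Si8), Muc13 ran from 619 to 913 CPM in DC library 1 and 350 to 594 in DC library 2, and from 783 to 1272 in Si8 library 1 and 436 to 715 in Si8 library 2, highest in cluster 3 in all 4 libraries, where Zg16 and Clca1 led. Across cluster sums, which share libraries and depth, Muc13 had a Pearson r with Muc2 of 0.33 in DC and 0.85 in Si8, and Muc3 with Muc4 of -0.31 in DC and 0.61 in Si8.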
